A study of Mus musculus with 29 samples.

Results

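The genes described here encode the proteasome, the protease that degrades ubiquitin-tagged proteins, together with its activators, its inhibitor and the chaperones that assemble it. They were found by mapping the Ensembl gene identifiers of each deposited table, without version, to mouse symbols and taking every protein-coding symbol that starts with Psma to Psmg and a digit. This gave 42 genes among the 10678 genes measured in either brain region. Of these, 38 were among the 9872 amygdala genes and 30 among the 6080 prefrontal genes, and 26 were measured in both. The amygdala alone had 12 and the prefrontal cortex alone had 4 (Psmb3, Psmb4, Psmb5 and Psme1). A further 8 protein-coding symbols of the pattern had no row in either region: Psma8, Psmb8, Psmb9, Psmb10, Psme2b, Psmg1, Psmg3 and Psmc3ip. The last matches by name only, since it is a recombination factor. How the deposited tables were reduced to these genes is not given in the sources used here, so no count below speaks for the genes without a row.

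By the labels, RNA was measured in pyramidal neurons of Thy1-YFP mice (B6.Cg-Tg(Thy1-YFP)HJrs/J), sorted separately from amygdala and from medial prefrontal cortex. This is a line in which a Thy1 promoter drives a yellow fluorescent protein in a subset of neurons. All groups carry this transgene. The labels divide the mice into Res-T and Sus-T and into those with and without trauma, and the series title relates the study to inefficient fear extinction. They do not give the age or sex, spell out Res-T and Sus-T, or describe the trauma. Without trauma there were 3 Res-T and 2 Sus-T amygdala libraries and 4 Res-T and 2 Sus-T prefrontal libraries. With trauma there were 4 and 4 in the amygdala and 3 and 4 in the prefrontal cortex. The design text names 9 mice for the amygdala against 13 libraries, so p-values measure the spread between libraries, some of which may share an animal.

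The proteasome has a barrel-shaped 20S core of alpha and beta rings, with the proteolytic sites on certain beta subunits. The 19S regulatory particle caps the barrel: its ring of ATPases unfolds the substrate and opens the gate, and its non-ATPase subunits bind ubiquitin chains and remove them. Other activators, among them Psme3 (PA28 gamma, mainly nuclear) and Psme4 (PA200), can bind the same barrel ends. In neurons, the proteasome turns over synaptic proteins and takes part in synaptic plasticity and in forming memories.

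Values are the authors' normalized signal in arbitrary units, and the amygdala libraries summed to between 3267967 and 4021272, the prefrontal ones to between 2095138 and 2444486. Amygdala Res-T libraries without trauma stood apart, since their low values fell into regular steps of 0.907 to 1.11 units. The index of this regularity, which is 1 for perfect steps, was 0.257 to 0.535 in these 3 libraries and at most 0.154 in the other 23. This group enters each amygdala comparison with many calls. These are Sus-T against Res-T without trauma (27.4% of all genes called), trauma in Res-T (6.18%) and the difference between the trauma effects (6.74%). The amygdala comparisons without this group had 0% and 0.0304% of all genes called. Its part in the calls was not tested. Defining markers of pyramidal neurons such as Slc17a7 and Neurod6 had no row. Only 3 of 11 pyramidal markers (Camk2a, Nrgn and Camk2n1) were measured in the amygdala and 0 of 11 were measured in the prefrontal libraries, so the label could not be checked there. Oligodendrocyte markers were abundant: 16 of them made up 1.92% to 7.23% of the amygdala totals, and 12 made up 2.52% to 8.56% of the prefrontal totals. In bulk libraries, fewer cells of a type and less RNA per cell cannot be told apart.

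Most of the constitutive particle was measured. All 7 constitutive alpha subunits and all 6 ATPases had rows in the amygdala, as did 4 of the 7 constitutive beta subunits and all 11 non-ATPase subunits. The prefrontal tables held 5 alpha, 5 beta, 5 ATPase and 10 non-ATPase subunits. None of the interferon-inducible beta subunits Psmb8, Psmb9 and Psmb10 had a row in either region. The thymus-type beta subunit Psmb11 was measured in the amygdala alone, at a mean of 7.81 over all libraries.

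Per kilobase of the longest coding transcript, levels in the amygdala averaged over libraries were highest for Psmb2 (217), Psmc2 (183) and Psma6 (181). The levels per kilobase of the other alpha, beta, ATPase and non-ATPase subunits ran from 74.2 (Psmd13) to 179 (Psmb6), with Psmb11 at 1.84. Assembly chaperones were lower, from 20.5 per kilobase for Psmg4 to 33.0 for Psmg2. Dividing by length assumes that the deposited values grow with transcript length, which is not given in the sources used here. The order of genes depends on this. Psmd5, with a transcript of 4397 bases, had undivided amygdala values within the range of the core subunits. Prefrontal levels per kilobase had Psmc2 highest (158), followed by Psmb6 (140.4) and Psmd2 (137), and the assembly chaperones Psmd5, Psmd10 and Psmg2 lowest, from 20.7 to 24.1. This order averages over groups that differ in Psmc2. By mean level per kilobase, Psmc2 ranked 1 of the 38 amygdala genes for Res-T and 24 for Sus-T mice without trauma. With trauma its ranks were 2 for Res-T (217) and 8 for Sus-T (148). Prefrontal Psmc2 ranked first in both Res-T groups (195 without and 199 with trauma) but not in Sus-T, where it had 117 without and 110.4 with trauma against 177 and 159 for Psmb6. Of the activators and the inhibitor in the amygdala, Psme4 was at 86.7 per kilobase, Psme3 at 70.9, Psme2 at 35.2 and Psmf1 at 28.0. The coefficient of variation of a gene over the 13 libraries ran from 12.5% (Psmd11) to 107% (Psme2) in the amygdala and from 14.5% (Psmd1) to 115% (Psmg2) in the prefrontal cortex, and the order of neighbouring genes was not tested.

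The first comparison asks how Sus-T and Res-T libraries of the amygdala differ without trauma. In Sus-T, 4 proteasome genes were higher (Psmc5, Psme3, Psmc1 and Psmd7) and 2 were lower (Psmc2 and Psme4) at an adjusted p under 0.05 in limma. Opposite changes lay within the ATPase ring, which held both Psmc5 and Psmc1 on one side and Psmc2 on the other. Psme3 and Psme4, which are separate activators, also went opposite ways. Those 6 of 38 genes are 15.8%, against 27.4% of all genes called in this comparison. Of all genes 12.4% were called higher and 15.0% lower. The median log2 change was 0.25 over the proteasome genes, 24 above 0 and 14 below, and -0.03 over all genes. The groups did not overlap for 12 proteasome genes that were higher and 5 that were lower, against 27.7% and 31.3% of all genes. The share of proteasome genes called lay below that of all genes, a difference that was not tested, and the description below turns on a few members.

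**Figure D1:**
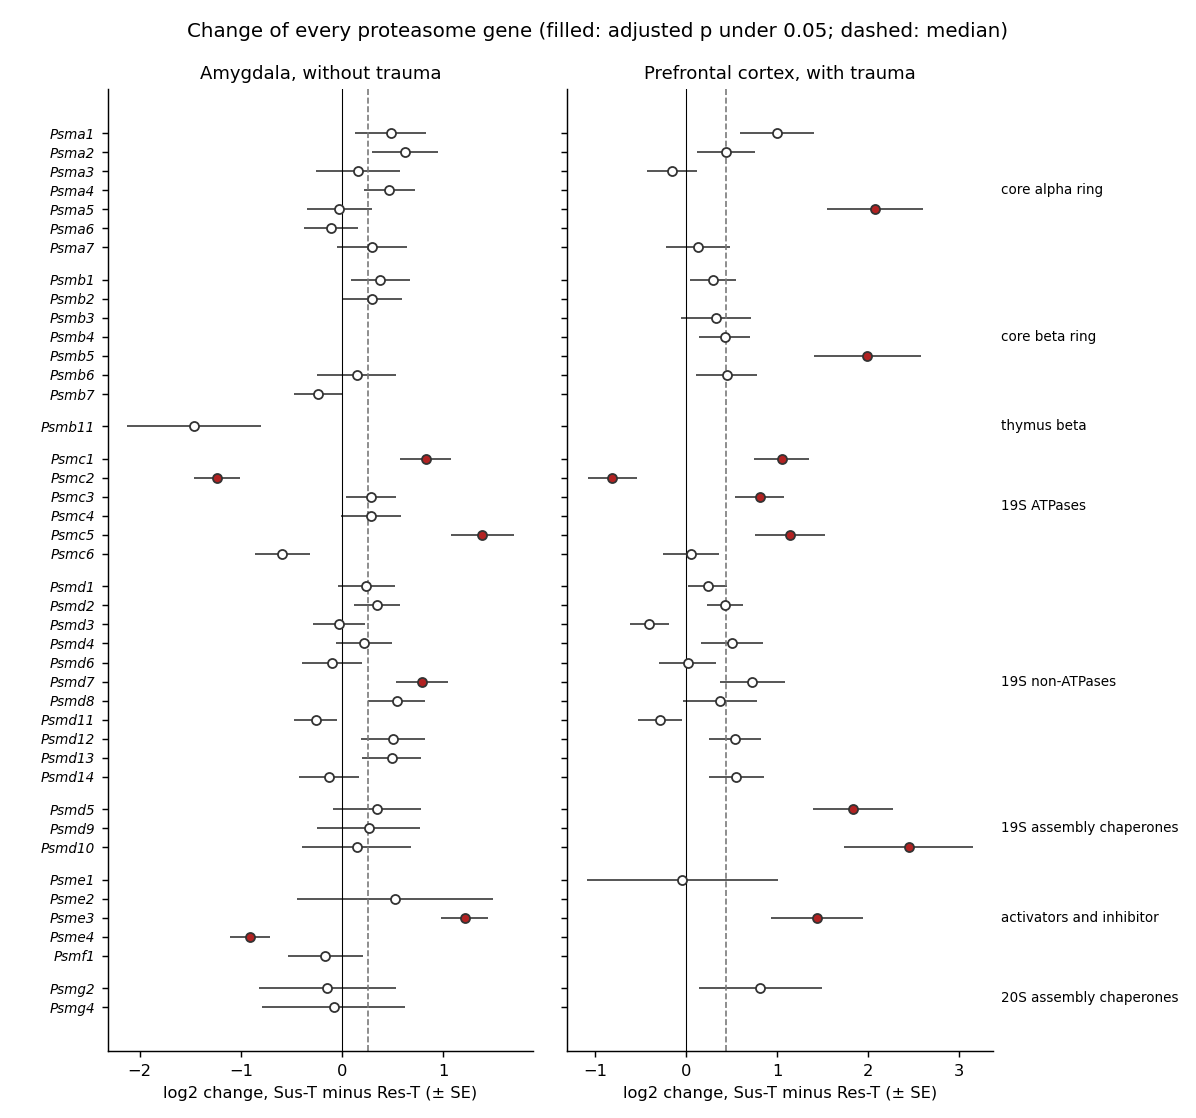
Log2 change (Sus-T minus Res-T) with its standard error for every proteasome gene measured, grouped by role, in the amygdala without trauma (left) and the prefrontal cortex with trauma (right). Filled points passed an adjusted p of 0.05, and the dashed line is the median of the members shown (0.25 and 0.44). Psmc2 lies to the left and Psmc1 and Psmc5 to the right of 0 in both panels.

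Psmc2 (Rpt1 of the ATPase ring, chr5:21785283-21803787 on GRCm38.p6) had amygdala values of 469.6, 368 and 435 (Res-T) and 182 and 175 (Sus-T) without trauma, and 461, 359, 377 and 354 (Res-T) and 303, 192, 285 and 274 (Sus-T) with trauma. Both Sus-T libraries without trauma lay below every other library of the region. The mean fell 2.36-fold, from 424 ± 51.6 (SD, n = 3) to 179 ± 4.36 (SD, n = 2) (log2 -1.24 ± 0.23 (SE), adjusted p = 0.00075).

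Psmc5 (Rpt6, chr11:106256154-106263120) went the other way. Its amygdala values were 56.8, 104 and 90.7 (Res-T) and 225 and 203 (Sus-T) without trauma, and 136, 106, 150.0 and 168 (Res-T) and 274, 163, 174 and 189 (Sus-T) with trauma. All 3 Res-T libraries without trauma lay below every other library, and it was 2.61-fold higher in Sus-T without trauma (log2 1.38 ± 0.31 (SE), adjusted p = 0.0032).

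Psmc1 (Rpt2, chr12:100110154-100123405), which opens the core's gate with its C-terminal tail, had values of 141, 117 and 119.5 (Res-T) and 233 and 214 (Sus-T) without trauma, and 139.7, 178, 122 and 157 (Res-T) and 139, 195, 167 and 192 (Sus-T) with trauma. Both Sus-T libraries without trauma were above every other amygdala library. The rise was 1.77-fold (log2 0.83 ± 0.25 (SE), adjusted p = 0.021). The other ATPases did not pass the test: Psmc3 was at log2 0.28, Psmc4 at 0.28 and Psmc6 at -0.59 (adjusted p = 0.42, 0.52 and 0.12). Thus 3 of 6 ATPases were called, 2 higher and 1 lower.

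The start regions of Psmc1, Psmc2, Psmc5 and Psme3 are shown because these 4 genes passed the test in both regions, Psmc2 in the direction opposite to the other three. The windows are RefSeq's on GRCm38.p6, all on the plus strand, with 250 bases before and 30 after the start site. Capitals mark CCAAT (the NF-Y box) and CTTCCGG (an ETS-type motif), on either strand. TGACNNNGC, the core of the antioxidant response element that Nfe2l1 binds, was searched as well and is in none of them. They lie at chr12:100109952-100110231 (Psmc1), chr5:21785025-21785304 and chr5:21786497-21786776 (the 2 starts of Psmc2), chr11:106255935-106256214 (Psmc5) and chr11:101315963-101316242 (Psme3).
Psmc1: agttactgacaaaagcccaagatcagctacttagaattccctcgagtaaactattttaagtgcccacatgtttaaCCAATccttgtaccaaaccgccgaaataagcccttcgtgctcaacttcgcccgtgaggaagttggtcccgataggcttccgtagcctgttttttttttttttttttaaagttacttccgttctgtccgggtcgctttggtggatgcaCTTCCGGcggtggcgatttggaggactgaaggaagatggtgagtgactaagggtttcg
Psmc2, upstream start: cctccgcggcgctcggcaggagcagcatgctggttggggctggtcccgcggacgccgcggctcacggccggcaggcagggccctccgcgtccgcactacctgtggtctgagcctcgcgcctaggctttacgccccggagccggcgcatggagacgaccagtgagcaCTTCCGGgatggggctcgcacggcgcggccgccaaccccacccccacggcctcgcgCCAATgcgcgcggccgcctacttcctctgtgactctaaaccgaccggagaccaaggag
Psmc2, downstream start: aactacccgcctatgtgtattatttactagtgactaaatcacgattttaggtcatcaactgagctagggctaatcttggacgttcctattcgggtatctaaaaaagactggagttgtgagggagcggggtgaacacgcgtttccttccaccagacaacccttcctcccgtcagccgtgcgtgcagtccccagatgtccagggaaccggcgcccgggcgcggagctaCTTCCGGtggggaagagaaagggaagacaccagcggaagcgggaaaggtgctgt
Psmc5: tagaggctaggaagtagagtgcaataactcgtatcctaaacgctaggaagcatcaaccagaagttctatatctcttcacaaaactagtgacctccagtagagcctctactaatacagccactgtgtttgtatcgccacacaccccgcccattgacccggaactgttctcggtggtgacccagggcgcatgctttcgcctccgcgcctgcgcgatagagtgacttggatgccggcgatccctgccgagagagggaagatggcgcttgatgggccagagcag
Psme3: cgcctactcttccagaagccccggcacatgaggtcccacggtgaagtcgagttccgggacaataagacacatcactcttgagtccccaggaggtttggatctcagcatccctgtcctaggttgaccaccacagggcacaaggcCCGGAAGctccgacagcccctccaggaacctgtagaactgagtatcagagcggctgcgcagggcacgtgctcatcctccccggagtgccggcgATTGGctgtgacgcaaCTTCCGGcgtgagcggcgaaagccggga
Psmc1, Psmc2 and Psme3 share CTTCCGG, and each of those 3 genes also has a CCAAT, while the Psmc5 window holds none of the 3 motifs. Among the 35 proteasome genes with a RefSeq window of 300 bases, 12 (34.3%) held CTTCCGG, against 20.4% of all genes measured in either region and 9.93% of all promoters. CCAAT was in 13 of them (37.1%, against 43.5% and 41.1%). TGACNNNGC was in 6 (17.1%, against 16.8% and 14.0%): Psmb5, Psmb6, Psmc6, Psmd9, Psmd12 and Psme4. CTTCCGG was added to the search after the windows had been read, so its share is a description only.

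Of the activators, Psme3 (chr11:101316213-101323537) had amygdala values of 129.7, 135 and 114 (Res-T) and 309 and 276 (Sus-T) without trauma, and 151, 139.6, 199.6 and 142 (Res-T) and 217, 212, 201 and 228 (Sus-T) with trauma. The Sus-T libraries lay above the Res-T libraries in both conditions, with trauma by a narrow margin (201 against 199.6) and without passing the test. Without trauma it rose 2.31-fold, from 126 ± 10.8 (SD, n = 3) to 293 ± 23.3 (SD, n = 2) (log2 1.21 ± 0.23 (SE), adjusted p = 0.00093).

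Psme4 (chr11:30771726-30880361), the largest single-chain activator, had values of 696, 671 and 732 (Res-T) and 325 and 425 (Sus-T) without trauma, and 554, 656, 532 and 583 (Res-T) and 568, 619.9, 450.0 and 509 (Sus-T) with trauma. Both Sus-T libraries without trauma were below every other library, and the fall was 1.88-fold (log2 -0.91 ± 0.20 (SE), adjusted p = 0.0026). A predicted gene, Gm12103, overlaps Psme4 on the opposite strand, and whether the counting used strand is not given in the sources used here. The inhibitor Psmf1 (PI31) had values of 80.4, 95.7 and 129 (Res-T) and 61.0 and 129 (Sus-T) without trauma, and 125, 85.4, 75.4 and 106 (Res-T) and 89.1, 168, 137 and 103 (Sus-T) with trauma. Its groups overlapped throughout (log2 -0.16 ± 0.37 (SE), adjusted p = 0.79 without trauma). Psme2 (PA28 beta), the interferon-inducible activator, had 22.2, 23.0 and 22.4 in Res-T and 96.7 and 10.7 in Sus-T without trauma, and the Sus-T pair spanned the Res-T range (log2 0.52 ± 0.97 (SE), adjusted p = 0.73).

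Among the 11 non-ATPase subunits, 1 passed. Psmd7 (chr8:107580381-107588464), the partner of the deubiquitinase Psmd14 in the lid, had values of 203, 160.5 and 139 (Res-T) and 335 and 243 (Sus-T) without trauma, and 205, 337, 237 and 229 (Res-T) and 217, 207, 200.3 and 233 (Sus-T) with trauma. It was 1.72-fold higher in Sus-T without trauma (log2 0.78 ± 0.25 (SE), adjusted p = 0.029), and the Res-T library at 337 with trauma was the highest of the region. Psmd14 itself, which cuts the ubiquitin chain off the substrate, had 227, 179 and 200.4 in Res-T and 222 and 152 in Sus-T without trauma (log2 -0.13 ± 0.30 (SE), adjusted p = 0.79). Psmd1, the scaffold Rpn2, had 412, 392 and 329 in Res-T and 498 and 397 in Sus-T (log2 0.24 ± 0.28 (SE), adjusted p = 0.56). Psmd4, the ubiquitin receptor Rpn10, had 169.9, 176 and 114 in Res-T and 182 and 167 in Sus-T (log2 0.22 ± 0.28 (SE), adjusted p = 0.61). The groups overlapped for each of these last 3 genes.

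The core did not pass the test at any of its 12 measured subunits. Its 7 alpha subunits ran from log2 -0.11 (Psma6) to 0.62 (Psma2), with adjusted p from 0.17 to 0.96. Its 4 constitutive beta subunits ran from -0.24 (Psmb7) to 0.38 (Psmb1). Psmb11 was at log2 -1.46 (adjusted p = 0.11) at a level near the bottom of the table. Psma7 had values of 118, 134 and 100.3 in Res-T and 145 and 141 in Sus-T without trauma (log2 0.29 ± 0.35 (SE), adjusted p = 0.57). The assembly chaperones did not pass either: the 19S chaperones Psmd5, Psmd9 and Psmd10 were at log2 0.34, 0.26 and 0.14, and the 20S chaperones Psmg2 and Psmg4 at -0.15 and -0.08. Psmg2 values were 51.8, 52.9 and 49.9 in Res-T and 93.8 and 22.7 in Sus-T, the latter pair spanning the whole Res-T range.

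**Figure D2:**
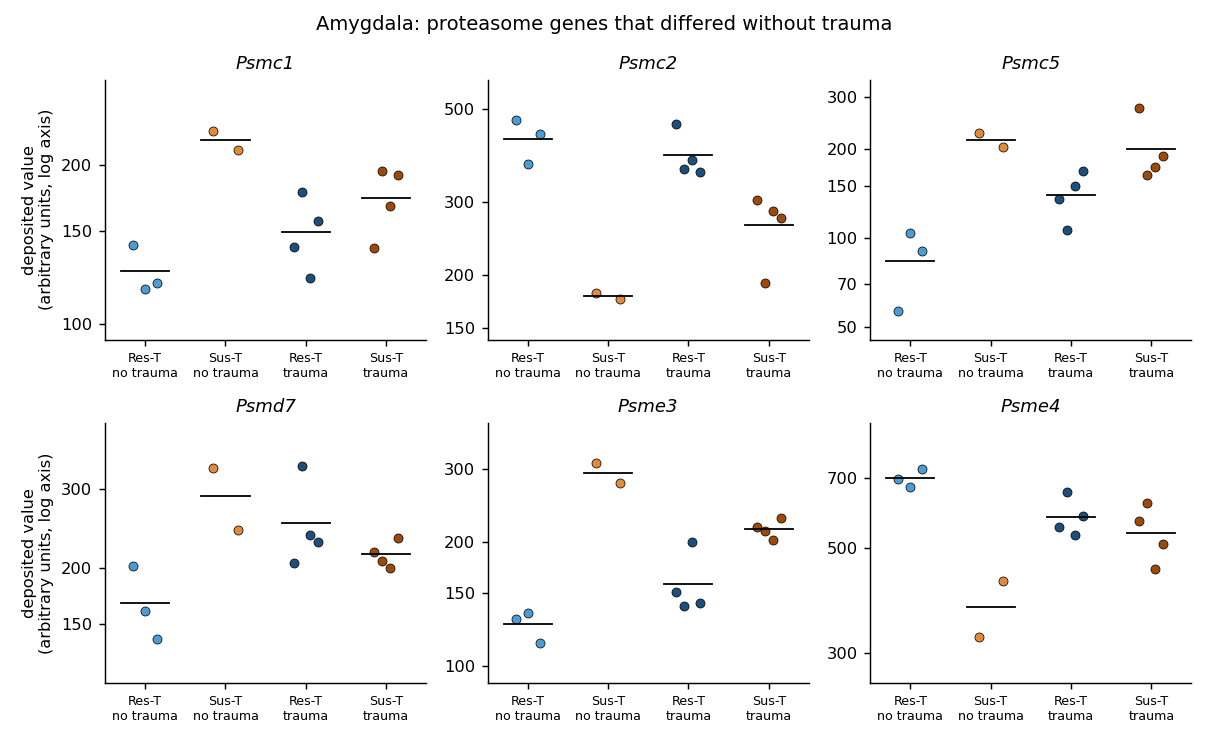
Deposited values (arbitrary units, log axis) of the 6 proteasome genes called in the amygdala without trauma, in each library of the 4 groups. Points are libraries and bars group means. Psmc2 and Psme4 are lowest, and Psmc1 and Psme3 highest, in the 2 Sus-T libraries without trauma.

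Markers of other cells moved in the same comparison. The summed oligodendrocyte share was 6.15% to 7.23% in Res-T and 1.92% to 2.88% in Sus-T without trauma, with 14 of 16 markers called lower. Astrocyte markers made up 0.31% to 0.48% in Res-T and 1.01% to 1.86% in Sus-T, with 4 of 9 called higher. The 3 pyramidal and the 3 microglial markers measured were all called higher, from summed shares of 0.0049% to 0.0077% and of 0.0060% to 0.0093% in Res-T to 0.105% to 0.129% and 0.022% to 0.027% in Sus-T. Of 4 oligodendrocyte precursor markers 1 was called higher and 2 lower, of 4 endothelial markers 1 higher and 1 lower, and the 1 interneuron marker was called lower. With the mean log2 value of the oligodendrocyte markers as a covariate, 0 of the 38 proteasome genes and 12 of all genes passed. Psmc2 then stood at log2 -1.51, Psmc5 at 1.23, Psme3 at 0.90 and Psme4 at -0.01. The oligodendrocyte shares of the groups compared did not overlap, so this fit separates group from marker level poorly. The part of these markers in the differences was not tested. Leaving out Sus-T replicate 1 left 3 genes called (Psmc2, Psmc5 and Psme3), and these 3 were called without any other single library of the comparison too.

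The prefrontal comparison with calls was Sus-T against Res-T with trauma. There 8 proteasome genes were higher in Sus-T (Psma5, Psmb5, Psmc1, Psmc3, Psmc5, Psmd5, Psmd10 and Psme3) and Psmc2 was lower. These 9 of 30 genes are 30%, against 23.0% of all genes called, 14.0% higher and 8.93% lower. The median log2 change of the proteasome genes was 0.44, with 25 of 30 above 0, against 0.15 over all genes. The groups did not overlap for 13 that were higher and 2 that were lower, against 24.4% and 16.3% of all genes. With median-of-ratios scaling the all-gene median moved to 0.02, the proteasome median to 0.31 and the calls to 6, and with quantile normalization to -0.01, 0.28 and 5.

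In the ATPase ring 4 of 5 measured subunits passed. Psmc2 had prefrontal values of 302, 269, 366 and 455 (Res-T) and 148 and 272 (Sus-T) without trauma, and 397, 253 and 415 (Res-T) and 209, 204, 196 and 179 (Sus-T) with trauma. All 4 Sus-T libraries with trauma were below the 3 Res-T libraries, a fall of 1.76-fold (log2 -0.81 ± 0.27 (SE), adjusted p = 0.036). Psmc5 had 170.4, 389, 119 and 86.8 (Res-T) and 201 and 215 (Sus-T) without trauma, and 77.2, 84.2 and 86.6 (Res-T) and 141, 206, 226 and 172 (Sus-T) with trauma. Its rise with trauma was 2.2-fold (log2 1.14 ± 0.39 (SE), adjusted p = 0.041), and the Res-T libraries without trauma spanned both Sus-T groups.

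Psmc1 had 149, 150.3, 119 and 124 (Res-T) and 137 and 183 (Sus-T) without trauma, and 95.9, 136 and 54.8 (Res-T) and 164, 176, 225 and 185 (Sus-T) with trauma. It was 2.07-fold higher in Sus-T with trauma (log2 1.05 ± 0.31 (SE), adjusted p = 0.022). Psmc3 (Rpt5, chr2:91054009-91066369) had 132, 181 and 115 in Res-T and 192, 242, 292 and 269 in Sus-T with trauma, 1.75-fold higher (log2 0.81 ± 0.27 (SE), adjusted p = 0.039), and 187, 208, 143 and 122 in Res-T and 198 and 233 in Sus-T without trauma. Slc39a13 overlaps it on the opposite strand. In both genes all Sus-T libraries with trauma lay above the Res-T ones, while Psmc6 did not pass (log2 0.05 ± 0.31 (SE), adjusted p = 0.92).

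In the core, 1 alpha and 1 beta subunit passed. Psma5 (chr3:108256926-108279974), a subunit of the alpha ring, had 98.8, 286, 41.0 and 46.6 (Res-T) and 109 and 131 (Sus-T) without trauma, and 24.9, 31.1 and 19.6 (Res-T) and 94.1, 79.9, 127 and 141 (Sus-T) with trauma. The 3 Res-T libraries with trauma lay below every other prefrontal library, and Sus-T was 4.22-fold higher, at 111 ± 28.4 (SD, n = 4) against 25.2 ± 5.75 (SD, n = 3) (log2 2.08 ± 0.53 (SE), adjusted p = 0.012). The gene 1700010K24Rik overlaps Psma5 on the opposite strand. Psmb5 (chr14:54614119-54618022), which carries the chymotrypsin-like site and is the target of the drug bortezomib, had 30.5, 113, 38.2 and 12.5 (Res-T) and 104 and 91.1 (Sus-T) without trauma, and 10.6, 17.3 and 9.33 (Res-T) and 37.7, 48.2, 54.9 and 66.1 (Sus-T) with trauma. It was 3.98-fold higher in Sus-T with trauma (log2 1.99 ± 0.59 (SE), adjusted p = 0.024), and 1 Res-T library without trauma lay within the Res-T range with trauma. The genome also holds a processed copy, Psmb5-ps, whose reads the counting could have split or merged. The other 4 alpha subunits ran from log2 -0.15 (Psma3) to 1.0 (Psma1, adjusted p = 0.089), and the other 4 beta subunits from 0.29 (Psmb1) to 0.44 (Psmb6). Psma7 had 110.2, 113 and 81.7 (Res-T) and 89.5, 179.6, 90.7 and 99.6 (Sus-T) with trauma. Its groups overlapped (log2 0.13 ± 0.35 (SE), adjusted p = 0.82).

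Both 19S assembly chaperones measured passed. Psmd10 (gankyrin, chrX:140948429-140956728), which holds the ATPase Psmc4 during assembly, had 27.0, 2.91, 44.1 and 13.5 (Res-T) and 20.2 and 27.3 (Sus-T) without trauma, and 14.3, 9.44 and 8.97 (Res-T) and 78.3, 35.3, 52.1 and 107 (Sus-T) with trauma. All 4 Sus-T libraries with trauma were above the Res-T libraries with trauma, 5.46-fold in the fit (log2 2.45 ± 0.71 (SE), adjusted p = 0.021), at low values. Psmd5 (S5b, chr2:34849734-34874968), which holds the ATPases Psmc1 and Psmc2 during assembly, had 98.2, 159.9, 71.0 and 36.9 (Res-T) and 143 and 113 (Sus-T) without trauma, and 29.7, 46.6 and 22.1 (Res-T) and 88.9, 117, 120.3 and 136 (Sus-T) with trauma. It was 3.57-fold higher in Sus-T with trauma (log2 1.83 ± 0.44 (SE), adjusted p = 0.0089). This is the one proteasome gene called in that comparison whichever of its 7 libraries was left out, with an adjusted p of at most 0.0496. Cutal overlaps it on the opposite strand. The 20S chaperone Psmg2 had 13.5, 9.84 and 15.5 in Res-T and 14.4, 29.5, 40.3 and 16.7 in Sus-T with trauma (log2 0.82 ± 0.68 (SE), adjusted p = 0.41).

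Of the activators, Psme3 had 196, 439.6, 138 and 49.6 (Res-T) and 335 and 238 (Sus-T) without trauma, and 58.2, 97.9 and 64.3 (Res-T) and 258, 229, 191 and 129.8 (Sus-T) with trauma. It was 2.71-fold higher in Sus-T with trauma (log2 1.44 ± 0.50 (SE), adjusted p = 0.048), and the Res-T libraries without trauma held both the highest and the lowest value of the region. Psme1 (PA28 alpha), which is part of the interferon-inducible activator, had 51.7, 51.1 and 26.5 in Res-T and 3.66, 106, 31.9 and 170.2 in Sus-T with trauma, too spread to order the groups (log2 -0.05 ± 1.05 (SE), adjusted p = 0.98). None of the 10 non-ATPase subunits passed. They ran from log2 -0.41 (Psmd3) to 0.73 (Psmd7). Psmd14 had 107, 107 and 116 in Res-T and 147, 152, 176 and 172 in Sus-T, which did not overlap (log2 0.55 ± 0.30 (SE), adjusted p = 0.20). Psmd1 had 278, 329.8 and 239 in Res-T and 324, 396, 286 and 320.1 in Sus-T (log2 0.23 ± 0.21 (SE), adjusted p = 0.45). Psmd4 had 92.2, 140.1 and 70.2 in Res-T and 171, 104, 162 and 124 in Sus-T (log2 0.50 ± 0.34 (SE), adjusted p = 0.31).

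**Figure D3:**
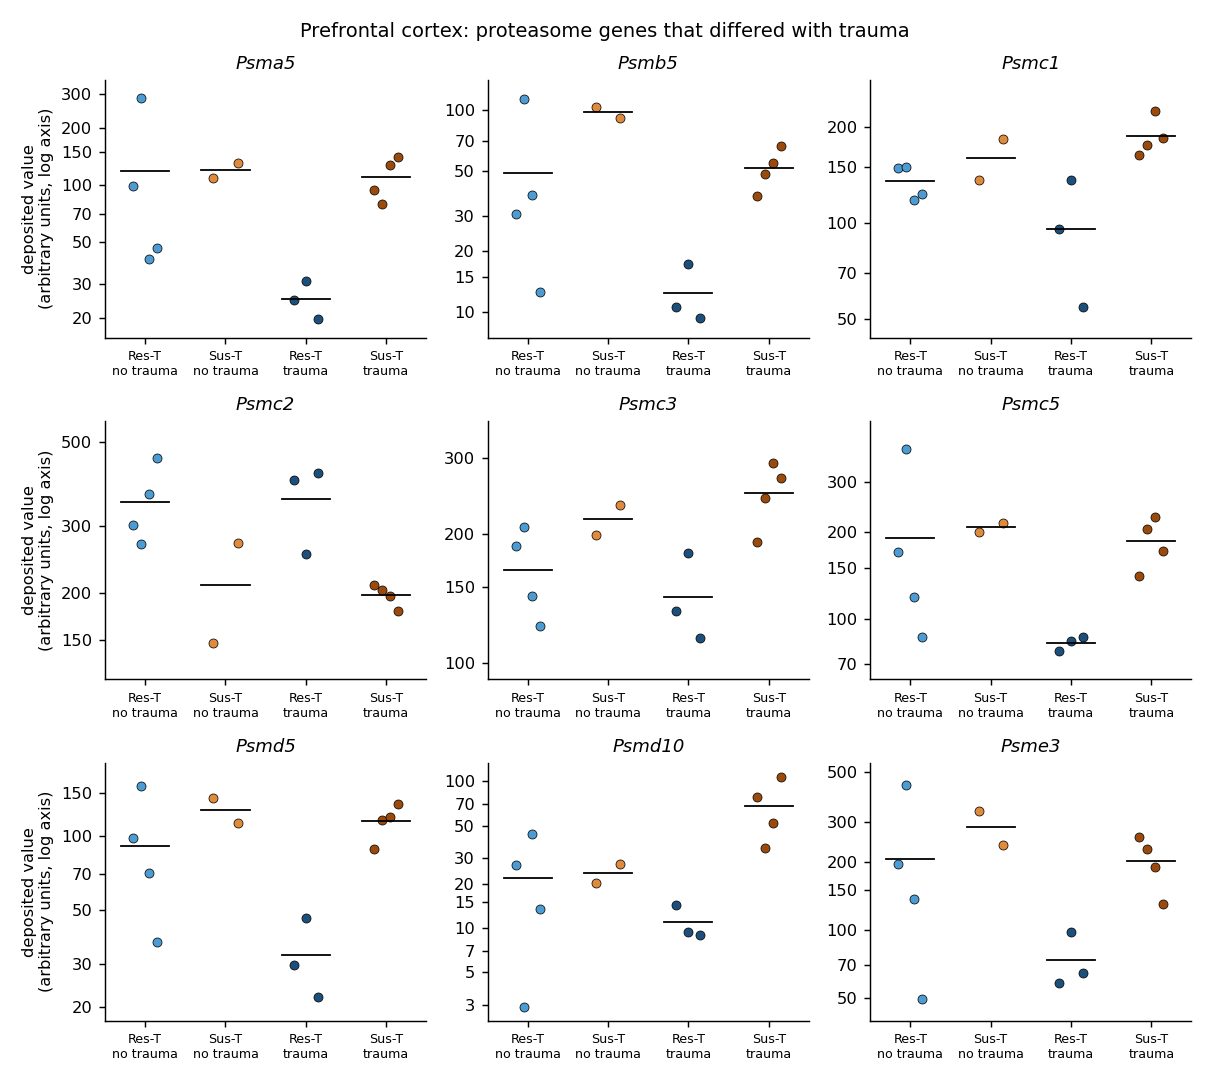
Deposited values (arbitrary units, log axis) of the 9 proteasome genes called in the prefrontal cortex with trauma, in each library of the 4 groups. Points are libraries and bars group means. The 3 Res-T libraries with trauma lie below the 4 Sus-T libraries with trauma for every gene shown except Psmc2, where they lie above.

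Oligodendrocyte markers moved here too. Their share was 5.34% to 7.42% in Res-T and 2.63% to 4.45% in Sus-T with trauma, with 9 of 12 called lower, while 0 of 6 astrocyte markers were called. Of 2 precursor markers 1 was called higher, and the 1 interneuron marker was not called. With the mean log2 value of the oligodendrocyte markers as a covariate 0 proteasome genes passed, as did 0 of all genes. The oligodendrocyte shares did not overlap here either, so the same limit holds. Psmc2 then stood at log2 -0.81, Psmc1 at 1.03, Psmd10 at 2.70, Psmc5 at 0.32 and Psme3 at 0.13. The part of the markers in the differences was not tested. Single libraries decided much of the count of 9: it was 1 without Res-T replicate 4, 2 without Res-T replicate 1, and 5, 3 and 4 without Sus-T replicates 2, 3 and 4.

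The 2 comparisons with calls share no library, so their values can be set side by side. Psmc1, Psmc5 and Psme3 were called higher and Psmc2 was called lower in both, 4 genes that are 66.7% of the amygdala calls and 44.4% of the prefrontal calls. Only 5 of the 6 amygdala calls and 8 of the 9 prefrontal calls had a row in the other region. Of all genes 695 were called in both, each with the same sign. The prefrontal calls of Psmc2, Psmc5 and Psme3 were near the threshold: each was lost without any of 6 of the 7 libraries compared, and with a replicate block none of the 3 passed. Psmc5 and Psme3 also lost their prefrontal calls under median-of-ratios and quantile scaling. Psmc1 lost its prefrontal call without any of 3 of the 7 libraries and its amygdala call without any of 4 of the 5. Among the 26 proteasome genes measured in both regions these 4 are 15.4%, against 13.2% of the 5274 genes measured in both. The change had the same sign for 20 of the 26 (76.9%), close to the 76.2% of all genes. Across those 26 genes the log2 changes of the regions had a Pearson r of 0.47, against 0.67 across all genes. Genes are not independent replicates. Psmd7 was called in the amygdala alone, and Psma5, Psmc3, Psmd5 and Psmd10, measured in both regions, in the prefrontal cortex alone. Whether these differ between regions was not tested.

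Inside the ATPase ring, where the assembled particle holds 1 copy of each subunit, the Psmc2 to Psmc5 ratio of values per kilobase summarises the opposite changes. It was chosen after those changes were seen and is given as a description. Its size relative to 1 assumes that the values grow with transcript length, while its order among libraries does not depend on that. In the amygdala it was 6.10, 2.61 and 3.54 in Res-T and 0.594 and 0.638 in Sus-T without trauma. With trauma it was 2.51, 2.49, 1.85 and 1.55 in Res-T and 0.817, 0.870, 1.21 and 1.07 in Sus-T. Every Res-T library of the amygdala had more Psmc2 than Psmc5 per kilobase and a higher ratio than every Sus-T library. In the prefrontal cortex the ratio was 3.79, 2.21 and 3.53 in Res-T and 1.10, 0.730, 0.641 and 0.766 in Sus-T with trauma, again without overlap. Without trauma the prefrontal ratio was 1.31, 0.510, 2.27 and 3.87 in Res-T and 0.543 and 0.930 in Sus-T, which overlapped.

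The share of the library total taken by all proteasome genes together was, in the amygdala without trauma, 0.170% to 0.194% in Res-T and 0.206% to 0.243% in Sus-T, which did not overlap. With trauma it was 0.195% to 0.261% in Res-T and 0.186% to 0.212% in Sus-T, which overlapped. The prefrontal share was 0.16% to 0.185% in Res-T and 0.229% to 0.250% in Sus-T with trauma, which did not overlap. Without trauma it was 0.207% to 0.274% in Res-T and 0.228% to 0.276% in Sus-T.

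**Figure D4:**
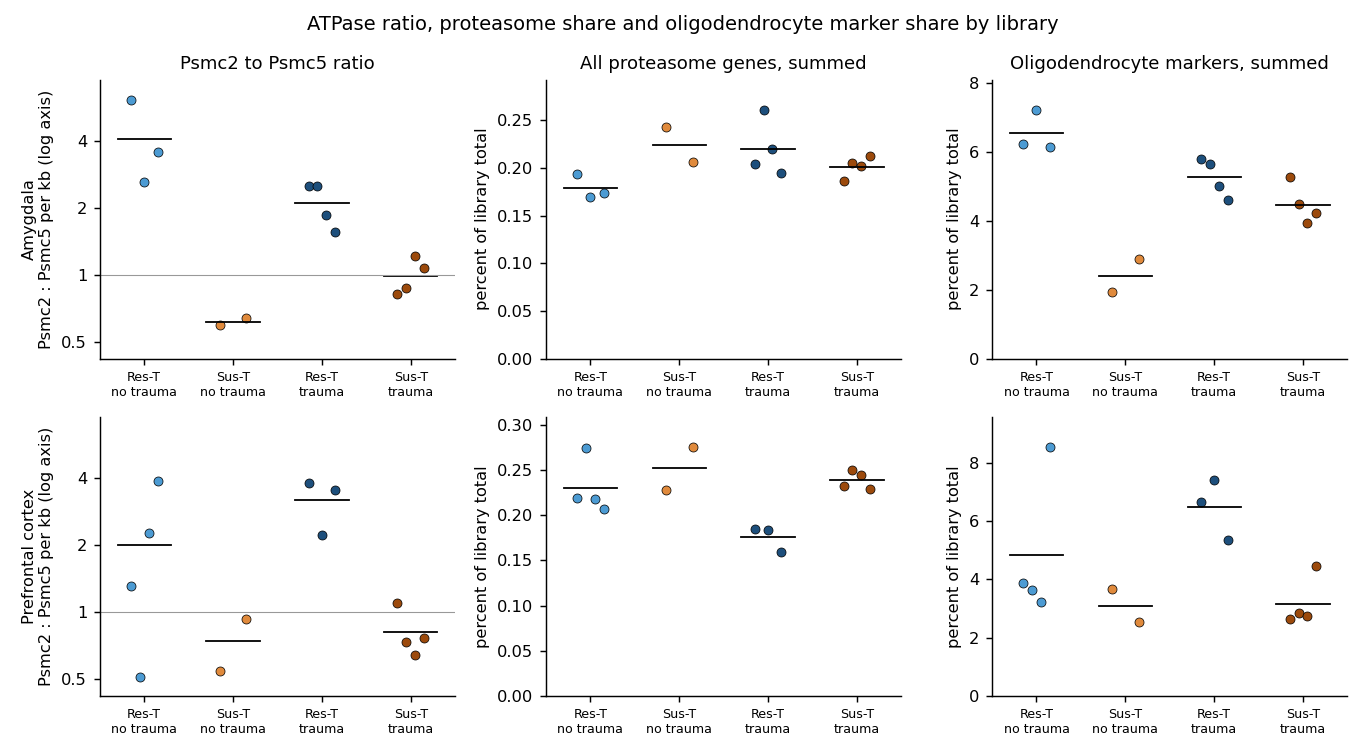
Psmc2 to Psmc5 ratio per kilobase (log axis, grey line at 1), summed proteasome share and summed oligodendrocyte marker share (percent of the library total) in each library of the amygdala (top) and prefrontal cortex (bottom). Points are libraries and bars group means. The ratio separates all Res-T from all Sus-T libraries in the amygdala and, with trauma, in the prefrontal cortex, and the oligodendrocyte share is lower in Sus-T in the same comparisons except for overlap in the amygdala with trauma.

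No proteasome gene passed in the other comparisons. In the amygdala with trauma, 0 of 38 differed between Sus-T and Res-T, as did 0% of all genes, with 3 at an unadjusted p under 0.05 in limma. The groups did not overlap for 1 gene that was higher and 1 that was lower, against 3.46% and 2.29% of all genes. The smallest p values were those of Psmc2 (log2 -0.57 ± 0.18 (SE), adjusted p = 0.22), Psme3 (log2 0.45 ± 0.18 (SE), adjusted p = 0.34) and Psmd5 (log2 -0.72 ± 0.34 (SE), adjusted p = 0.43). The 2 genes without overlap were Psme3 and Psmc2, in the direction seen without trauma. These counts are close to the shares of all genes, so they show nothing particular to the 2 genes. For Psme3 the gap was narrow, with a lowest Sus-T value of 201 against a highest Res-T value of 199.6. In the prefrontal cortex without trauma 0 of 30 passed, against 0% of all genes, with 2 at an unadjusted p under 0.05. Without overlap 1 gene was higher and 1 lower, against 8.16% and 6.74% of all genes. The leading genes were Psmc2 (log2 -0.77 ± 0.30 (SE), adjusted p = 0.42), Psmd3 (log2 -0.62 ± 0.24 (SE), adjusted p = 0.42) and the catalytic Psmb5 (log2 1.40 ± 0.67 (SE), adjusted p = 0.49).

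The effect of trauma itself was tested within Res-T and within Sus-T. In Res-T amygdala 0 of 38 passed, against 6.18% of all genes, with 7 at an unadjusted p under 0.05. Without overlap 5 were higher and 4 lower, against 9.68% and 13.5% of all genes. The leading genes were Psmc5 (log2 0.76 ± 0.26 (SE), adjusted p = 0.087), Psma2 (log2 0.74 ± 0.27 (SE), adjusted p = 0.11) and Psmd7 (log2 0.58 ± 0.21 (SE), adjusted p = 0.11). All 4 Res-T libraries with trauma were above the 3 without for Psmc5 and Psmd7. In Sus-T amygdala 0 of 38 passed, against 0.0304% of all genes, with 2 at an unadjusted p under 0.05. Without overlap 2 were higher and 7 lower, against 12.6% and 7.77% of all genes. Psme4 (log2 0.52 ± 0.19 (SE), adjusted p = 0.26) and Psmc2 (log2 0.54 ± 0.22 (SE), adjusted p = 0.33) were higher in all 4 libraries with trauma than in the 2 without, and Psme3 (log2 -0.45 ± 0.22 (SE), adjusted p = 0.44) was lower in all 4.

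In Res-T prefrontal cortex 0 of 30 passed, against 0% of all genes, with 8 at an unadjusted p under 0.05. Without overlap 0 were higher and 4 lower, against 5.20% and 7.88% of all genes. The leading genes were Psma5 (log2 -1.75 ± 0.53 (SE), adjusted p = 0.21), Psmd5 (log2 -1.33 ± 0.44 (SE), adjusted p = 0.22) and Psma1 (log2 -1.15 ± 0.41 (SE), adjusted p = 0.24). The median over the proteasome genes was -0.36, with 25 of 30 below 0, against -0.04 over all genes. One library decided the count there. Without Res-T replicate 4 of the group without trauma, whose oligodendrocyte share of 8.56% was the highest of the region, 6 passed: Psma1, Psma5, Psmb5, Psmc5, Psmd5 and Psme3, and 588 of all genes. In Sus-T prefrontal cortex 0 of 30 passed, against 0% of all genes, and 0 had an unadjusted p under 0.05. Without overlap 2 were higher and 3 lower, against 4.42% and 3.60% of all genes. The smallest p values were those of Psmd10 (log2 1.38 ± 0.80 (SE), adjusted p = 0.9999), Psma1 and Psma2 (log2 -0.68 and -0.52, both with an adjusted p of 0.9999).

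The difference between those trauma effects was tested as an interaction. In the amygdala 0 of 38 passed, against 6.74% of all genes, with 7 at an unadjusted p under 0.05. Leading were Psme4 (log2 0.79 ± 0.25 (SE), adjusted p = 0.066), Psmd7 (log2 -0.99 ± 0.32 (SE), adjusted p = 0.072) and Psme3 (log2 -0.76 ± 0.29 (SE), adjusted p = 0.12). Without Res-T replicate 2 with trauma, Psme4 alone passed (adjusted p = 0.041). In this amygdala contrast 14 of 16 oligodendrocyte markers were called higher. With the oligodendrocyte covariate 2 of all genes passed, against 665 in the main fit. The part of these markers was not tested. In the prefrontal cortex 0 of 30 passed, against 0% of all genes, with 0 at an unadjusted p under 0.05, and Psma5 (log2 1.61 ± 0.80 (SE), adjusted p = 0.77), Psmd5 (log2 1.18 ± 0.67 (SE), adjusted p = 0.79) and Psmc1 (log2 0.82 ± 0.46 (SE), adjusted p = 0.79) led. So no difference in the effect of trauma between Sus-T and Res-T was shown for any proteasome gene.

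Genes that work with the proteasome but have no Psm symbol were followed through a list of 33, of which 30 had a row in the amygdala and 21 in the cortex. In the amygdala without trauma 12 of 30 were called (40%, against 27.4% of all genes), 8 higher and 4 lower in Sus-T. Fbxo7, an F-box protein that binds the inhibitor Psmf1, fell from 1041 to 339 (log2 -1.62 ± 0.22 (SE), adjusted p = 6.2e-05). Rps27a, which encodes ubiquitin fused to a ribosomal protein, rose from 345 to 763 (log2 1.15 ± 0.26 (SE), adjusted p = 0.0035). Ubqln4, a shuttle that carries ubiquitinated proteins to the proteasome, rose from 166 to 409 (log2 1.30 ± 0.30 (SE), adjusted p = 0.0042), and Ngly1, the deglycosylase that helps to activate Nfe2l1, fell from 200.4 to 84.6 (log2 -1.25 ± 0.34 (SE), adjusted p = 0.011). Nfe2l1, the transcription factor that raises proteasome genes when proteasome activity is low, rose 2.05-fold (log2 1.04 ± 0.29 (SE), adjusted p = 0.013), a gene singled out after its values were seen.

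With trauma in Res-T amygdala 3 of the 30 passed (against 6.18% of all genes), among them Fbxo7, which fell (log2 -0.81 ± 0.18 (SE), adjusted p = 0.016), and Rps27a, which rose (log2 0.83 ± 0.22 (SE), adjusted p = 0.032). The trauma effect differed between Sus-T and Res-T for 2 of the 30 (6.67%), close to the 6.74% of all genes. Among them was Fbxo7 (log2 1.30 ± 0.28 (SE), adjusted p = 0.011). These amygdala comparisons include the Res-T libraries without trauma, whose low values fell into regular steps. Cell type markers moved in them too. The part of the steps and of the markers was not tested. In the prefrontal cortex with trauma 4 of 21 were called (19%, against 23.0% of all genes). Pomp, which matures the 20S core, was higher in Sus-T, from 32.0 to 136 (log2 1.98 ± 0.49 (SE), adjusted p = 0.01). Usp14, a deubiquitinase bound to the 19S cap, rose from 147 to 257 (log2 0.79 ± 0.25 (SE), adjusted p = 0.03), and Nploc4, a cofactor of the unfoldase Vcp, rose from 184 to 350.1 (log2 0.92 ± 0.29 (SE), adjusted p = 0.031). Fbxo7 again fell, from 668 to 211 (log2 -1.67 ± 0.43 (SE), adjusted p = 0.012).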

How the data were processed

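The submitters' processing notes name bcl2fastq 2.20, Salmon 1.2 and the build GRCm38.p6, and the labels' protocols name sorted neurons, an ultra-low-input kit and removal of ribosomal RNA. Deposited values are a signal without a stated unit, which the authors had normalized by a method not given in the sources used here. On the log of each value minus 1, centred by gene, the 13 libraries of a region spanned 11 (amygdala) and 10 (prefrontal cortex) of the 12 dimensions possible. The spread within groups may therefore be too small and p-values too low. The tests themselves used the log2 of the value plus 1. Of 29 samples in 8 groups, 26 had values, and 3 were not analysed here.

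Symbols and coordinates came from GENCODE on GRCm38.p6, and promoter windows from RefSeq. The log2 of each value plus 1 was modelled, a minimum mean of 1 removed no gene, and 4 groups per region were fitted with limma 3.58.1 in R 4.3.3 (with its trend and robust settings and 9 residual degrees of freedom). All 5 contrasts per region were adjusted by Benjamini and Hochberg over all genes, with a threshold of 0.05. Fold changes are on the log2 scale of the value plus 1 and understate those of low genes. The fit was also run on simulated data with independent noise in each library, a setting without shared animals or missing dimensions. Every member is accounted for; values per library are given for up to 8 called members per contrast with the smallest p and for fixed representatives of each role, and Psme3 was added in the prefrontal cortex because it was called in both regions. In a contrast with fewer than 3 calls, the 3 smallest p are named. Of the associated genes, up to 5 called per contrast with the smallest p are named, except some that are not reported here, and Nfe2l1 was added after its values were seen. The members and lists were chosen with earlier results of these data known. Alternatives were other pseudocounts, normalizations, filters and fits, marker covariates, a replicate block and leaving out each library. Depth in reads is unknown.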

Additional observations from a re-analysis of the deposited data

Results flagged for a closer look

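Over the proteasome genes, 136 groups of 4 libraries were tested for a library far from the other three, and 12 held one, where chance flags about 1 in 20. Psmb2 was 281 in amygdala Res-T with trauma replicate 3 (next 161), Psmd4 252 in amygdala Res-T with trauma replicate 2 (next 182) and Psme2 127 in amygdala Res-T with trauma replicate 2 (next 24.7). Psmd13 was 228 in amygdala Sus-T with trauma replicate 2 (next 148). Psmd11 was low in 1 library of each region, at 249.6 in amygdala Res-T with trauma replicate 3 (next 289) and 195 in prefrontal Res-T without trauma replicate 2 (next 295). Psma2 was 352 in prefrontal Res-T without trauma replicate 2 (next 205) and 236 in prefrontal Sus-T with trauma replicate 2 (next 172). Psma7 was 179.6 in prefrontal Sus-T with trauma replicate 2 (next 99.6). Psmb3 was 128 in prefrontal Res-T without trauma replicate 4 (next 80.9), Psmd6 175 in prefrontal Res-T without trauma replicate 4 (next 142) and Psmg2 148 in prefrontal Res-T without trauma replicate 2 (next 30.3). None of these genes was called in a comparison as reported. The summed proteasome share held no such library in the 4 groups tested.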

How the results depend on the processing

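Of the counts of called proteasome genes recomputed under each alternative, 162 stayed within 1.5 times the value reported, 10 fell and 4 rose. Most of the 162 were counts of 0 that stayed at 0. Since a count of 0 cannot fall, all 10 falls were in the 2 comparisons with calls. In the amygdala without trauma the count of 6 became 0 with the oligodendrocyte covariate, and ran from 3 to 6 when each of the 5 libraries compared was left out. In the prefrontal cortex with trauma the count of 9 became 0 with that covariate, 5 with quantile normalization, and ran from 1 to 7 when each of the 7 libraries compared was left out. The amygdala trauma effect in Res-T went from 0 to 2 and the amygdala interaction from 0 to 1 with an astrocyte covariate, an alternative chosen after seeing the data. Leaving out each library of the groups compared gave 0 to 1 for that interaction and 0 to 6 for the prefrontal trauma effect in Res-T. The causes of these shifts were not tested. For the named genes, 595 log2 changes kept direction and side of the threshold, 73 lost it, 6 gained it, and 1 reversed: the change of Psme4 with trauma in Sus-T amygdala, 0.52 as reported, was -0.0026 with the oligodendrocyte covariate. Most of the 595 were uncalled genes that stayed uncalled, and only a called gene could lose the threshold. Leaving out single libraries lost an amygdala call in 0 of 5 fits (Psmc2, Psmc5 and Psme3) to 4 of 5 (Psmc1). A prefrontal call was lost in 0 of 7 fits (Psmd5) to 6 of 7 (Psmc2, Psmc5 and Psme3).

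Replicate numbers are shared across groups, and whether libraries with the same number share an animal or batch was not tested. Libraries with the same number had correlations of their deviations between -0.45 and 0.16 (amygdala) and between -0.40 and 0.35 (prefrontal cortex), over 0.1 in 3 of 16 pairs each. The medians were -0.040 and -0.092, against 0.016 and 0.026 for libraries with different numbers. With a replicate block the prefrontal count with trauma was 4 (Psma5, Psmc1, Psmd10 and Psmd5) and the amygdala count without trauma stayed at 6.

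The removed and unmeasured genes, the authors' unstated normalization and groups of 2 to 4 libraries limit what these values can show, and a gene that did not pass is not shown to be equal.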
